A study of Mus musculus with 16 samples.

Results

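Serpins are protease inhibitors that trap their target in a covalent complex, and the set examined here holds the mouse serpins known for blocking granzymes and cathepsins together with close paralogs. It comprises 8 of the 18929 genes measured in B16F10 melanomas, or 8 of the 45 serpin genes listed. The clade A members are Serpina3g, Serpina3f, Serpina3i and Serpina3n, and the clade B members are Serpinb9, Serpinb9b, Serpinb6a and Serpinb6b. Members were selected by symbol, and Serpina3g was chosen because of its large rise in the combination. Its values in every comparison that involves the combination are therefore given as a description, without a test. Its comparisons with vehicle reuse vehicle tumors that were part of that choice, so p-values given there are not independent of it.

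B16F10 is a mouse melanoma line, and its cells were implanted in the right side of the abdomen of C57BL/6 mice, all females aged 7 to 8 weeks. Whole-tumor poly(A) RNA was sequenced from 4 independent tumors in each of 4 groups, after 9 to 11 days of treatment. Vehicle mice received corn oil and an isotype IgG. The anti-PD1 group received a PD1-blocking antibody, the α-KG group received α-ketoglutarate at 100 mg/kg, and the α-KG + anti-PD1 group received both. All 16 tumors thus share the tumor line, the host strain and the implantation site, and the labels describe no genetic change in the hosts. Values are FPKM, fragment numbers divided by transcript length and by the size of the library, so levels can be set beside each other between genes. Sequencing depth cannot be read from FPKM, and the lowest values, such as those below 1 FPKM, rest on the fewest fragments.

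Granzymes are serine proteases that cytotoxic T cells and NK cells release with perforin to kill target cells. Serpins of clade B lack a classical secretion signal and act inside cells. Serpinb9 (SPI-6) inhibits granzyme B, Serpinb9b inhibits granzyme M, Serpinb6b inhibits granzyme A and Serpinb6a inhibits cathepsin G. Such inhibitors are known to shield killer cells, dendritic cells and some tumor cells from granzyme that reaches the cytosol. In clade A, Serpina3g (Spi2A) is an intracellular inhibitor of lysosomal cysteine cathepsins that is induced in activated lymphocytes and macrophages, and Serpina3n is a secreted acute-phase inhibitor of granzyme B and cathepsin G.

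The 8 genes lie in 2 clusters. On GRCm38.p6, the mm10 assembly named in the submitters' processing notes, the RefSeq table places Serpina3f at chr12:104214544-104221129, Serpina3g at chr12:104236147-104241939, Serpina3i at chr12:104263045-104269509 and Serpina3n at chr12:104406646-104414334. On chromosome 13, Serpinb6b spans chr13:32956811-32979067, Serpinb9 chr13:32997061-33017955, Serpinb9b chr13:33027414-33040588 and Serpinb6a chr13:33917918-34002794. The bases just before the start sites of the Serpina3 genes are shown because these neighbors resemble each other there and yet their transcripts behaved differently. They come from the RefSeq promoter windows of GRCm38.p6, each drawn around 1 annotated transcript start, all on the plus strand, at chr12:104236069-104236146 for Serpina3g, chr12:104214378-104214476 for Serpina3f, chr12:104262975-104263044 for Serpina3i and chr12:104406540-104406638 for Serpina3n. Capitals mark a GAS motif, the interferon gamma activated site TTCNNNGAA, and in Serpina3n the 9 letters that align with it.
Serpina3g: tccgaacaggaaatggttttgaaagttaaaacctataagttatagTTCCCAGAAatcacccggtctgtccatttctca
Serpina3f: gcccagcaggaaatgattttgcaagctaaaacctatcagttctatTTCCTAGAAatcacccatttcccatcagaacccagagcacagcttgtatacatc
Serpina3i: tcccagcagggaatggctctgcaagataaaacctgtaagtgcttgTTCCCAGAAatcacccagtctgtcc
Serpina3n: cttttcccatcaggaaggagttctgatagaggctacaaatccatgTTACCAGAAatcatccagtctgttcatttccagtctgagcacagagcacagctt

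The GAS letters begin 33 bases before the transcript start of Serpina3g and 121 bases before that of Serpina3f, which are the gene starts given above. In Serpina3i they begin 102 bases before the start its window uses, chr12:104263122, which lies inside the gene span, and still before the first base of that span. Serpina3n has no GAS match in its window. Counted from the first capital, the alignment of Serpina3g or Serpina3i with Serpina3n holds the single substitution C3A, and that of Serpina3f with Serpina3n holds C3A and T5C. Over the aligned bases of the windows, Serpina3g was 83.7% identical to Serpina3f, 79.7% to Serpina3i and 69.6% to Serpina3n. An NF-κB consensus match was found before Serpina3g and Serpina3i only among the 8 genes.

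For clade B, the stretches before Serpinb9 (chr13:33004450-33004540, plus strand), Serpinb9b (chr13:33027319-33027413, plus strand) and Serpinb6a (chr13:34002818-34002923, minus strand) are shown, because the first 2 rose and the last was not called. The window of Serpinb9 is drawn around a transcript start at chr13:33004541, which lies inside the gene span given above, so its stretch precedes that start and not the whole gene. Capitals mark an ISRE motif, the interferon-stimulated response element, in Serpinb9, the 10 aligned letters in Serpinb9b, and an ISRE that overlaps a GAS in Serpinb6a.
Serpinb9: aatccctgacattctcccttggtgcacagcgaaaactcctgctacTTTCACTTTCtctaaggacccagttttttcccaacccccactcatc
Serpinb9b: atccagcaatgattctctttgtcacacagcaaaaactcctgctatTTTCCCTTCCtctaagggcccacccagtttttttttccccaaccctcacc
Serpinb6a: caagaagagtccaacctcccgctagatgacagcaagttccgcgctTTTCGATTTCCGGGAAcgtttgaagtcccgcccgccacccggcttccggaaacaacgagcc

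Between Serpinb9 and Serpinb9b these 10 letters differ by A5C and T9C, and Serpinb9b holds no ISRE or GAS in its window. Serpinb6b holds none of the 3 motifs. Searched on both strands, GAS occurs in 8.30%, ISRE in 3.44% and the NF-κB consensus in 4.51% of all 32851 RefSeq windows of the same length. The motifs were picked after the promoters had been seen, and a match is a description of letters, not a binding site. Whether these motifs bear on expression was not tested. One of the windows of Serpinb6a carries both interferon motifs, its other window carries none of the 3, and the gene was not called in the fit as deposited, while Serpinb6b and Serpinb9b carry neither and rose.

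Serpina3g, chosen for its rise, was highest in the combination, Serpina3f, Serpina3i, Serpinb9, Serpinb9b and Serpinb6b rose there too, and Serpinb6a and Serpina3n did not pass the test. Of the other 7 members, 5 were called higher against vehicle (limma on log2(FPKM + 1), Benjamini-Hochberg adjusted p under 0.05 over 12850 genes), and 0 lower. The background was high: 34.9% of all genes tested were called higher in this comparison. Serpina3f, Serpina3i and Serpinb9b reached 0.5 FPKM in only 3 tumors each outside the combination, so they met the filter of 4 tumors only through the group where they are high, and their calls are not independent of it. Serpinb9 and Serpinb6b met it without the combination. As a description only, the median difference of the 7 members was 1.53 on the log2 scale and that of all genes 0.15.

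Serpina3g gave the largest values of the rising members in the combination. In vehicle tumors it was at 2.08, 1.03, 0.09 and 0.11 FPKM, in anti-PD1 tumors at 1.48, 8.48, 15.27 and 3.78 FPKM, in α-KG tumors at 1.48, 4.61, 1.31 and 0.85 FPKM, and in α-KG + anti-PD1 tumors at 49.37, 17.66, 52.13 and 10.58 FPKM. All combination tumors lay above all vehicle and all α-KG tumors, and anti-PD1 tumor 3 lay above combination tumor 4. Group means were 0.83 ± 0.94, 7.25 ± 6.09, 2.06 ± 1.72 and 32.4 ± 21.4 FPKM (SD, n = 4), in the same order of groups. The difference between combination and vehicle was 4.06 on the log2(FPKM + 1) scale (SE 0.59), a scale that shrinks the change of low genes, and it was 5.56 with a pseudocount of 0.1.

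**Figure D1:**
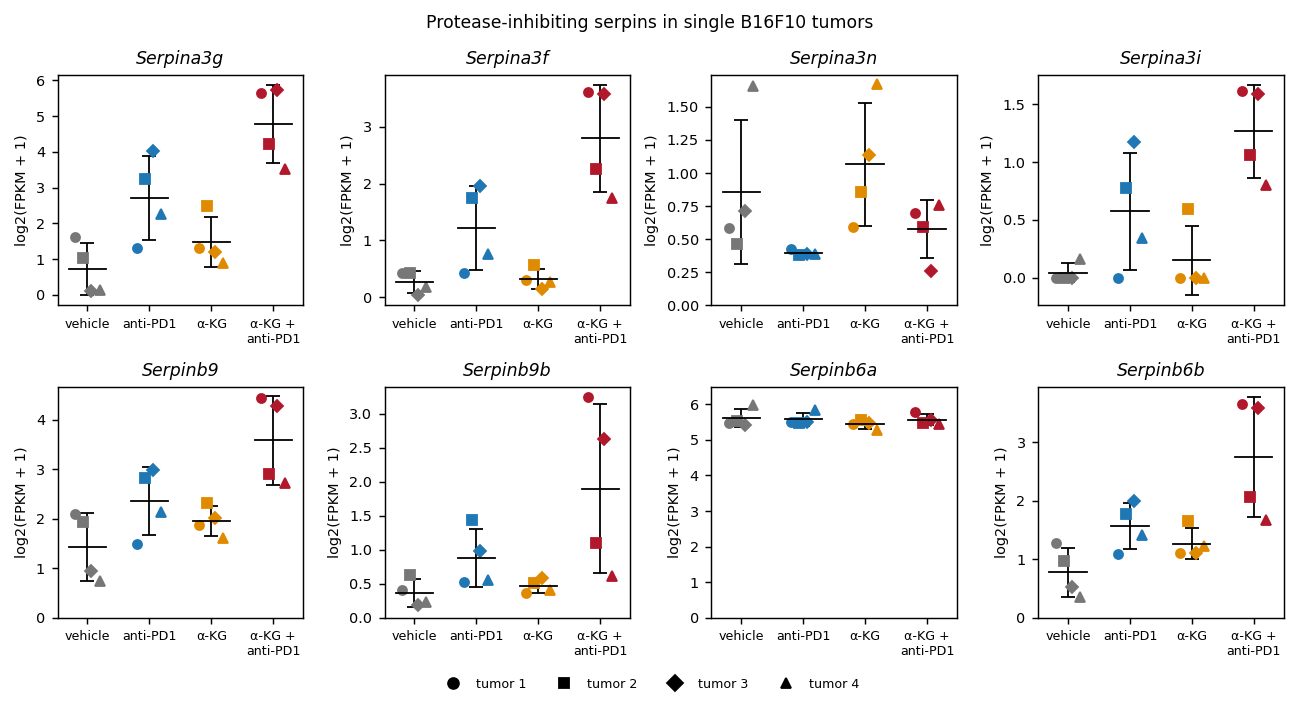
Level of the 8 serpins in each of the 16 tumors as log2(FPKM + 1), by group; each symbol is 1 tumor, the horizontal line is the group mean and the error bar is 1 SD (n = 4). Combination tumors 1 and 3 stand highest for every rising member, and Serpinb6a stays near one level in all groups.

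Serpina3f, its immediate neighbor, followed the same order at a lower level. Its FPKM values were 0.34, 0.34, 0.03 and 0.13 in vehicle, 0.34, 2.34, 2.90 and 0.70 with anti-PD1, 0.24, 0.49, 0.11 and 0.20 with α-KG, and 11.21, 3.79, 10.89 and 2.35 in the combination. The combination was wholly above vehicle, by 2.53 on the log2 scale (SE 0.39, limma adjusted p = 0.00046). It was also wholly above α-KG, by 2.47 (SE 0.39, adjusted p = 0.00054).

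The ratio of Serpina3g to Serpina3f varied least in the combination. It ranged from 4.40 to 4.79 across the 4 combination tumors and from 3.62 to 5.4 across the anti-PD1 tumors. In vehicle and α-KG tumors, where Serpina3f stayed below 0.5 FPKM as it did in anti-PD1 tumor 1, it ranged from 0.85 to 6.12 and from 4.25 to 11.9. Together with Serpina3i the pair summed to 1.07 ± 1.05 FPKM in vehicle, 9.38 ± 7.83 with anti-PD1, 2.45 ± 2.12 with α-KG and 41.0 ± 26.7 in the combination (SD, n = 4).

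Serpina3i, the third gene of this block, had the lowest mean of the 8 in vehicle tumors. It was listed at 0 in 3 vehicle tumors and at 0.12 FPKM in the remaining one, and at 0 in 3 α-KG tumors and at 0.51 FPKM in the remaining one. In anti-PD1 tumors it was at 0, 0.71, 1.25 and 0.27 FPKM, and in the combination at 2.06, 1.09, 2.00 and 0.74 FPKM. The combination lay wholly above vehicle, with a difference of 1.22 (SE 0.23, adjusted p = 0.0011), and wholly above α-KG, with a difference of 1.12 (SE 0.23, adjusted p = 0.0026).

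Values of this block carry a limit from sequence. In GENCODE M21 transcripts, 4.64% of the 100-base windows of Serpina3g, 3.58% of those of Serpina3f and 2.33% of those of Serpina3i occur exactly in a transcript of another gene, chiefly in each other and in Serpina3h and Serpina3e-ps. For Serpina3n the share was 0.204%, and for the 4 clade B members no window was shared. How fragments matching several genes were counted is not given in the sources used here, so the low Serpina3i values in particular may hold fragments of Serpina3g, a share that was not tested.

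Serpina3n differed from its neighbors in pattern and was not called in any comparison of the fit as described. Its FPKM values were 0.50, 0.38, 0.64 and 2.15 in vehicle, 0.34, 0.30, 0.31 and 0.31 with anti-PD1, 0.51, 0.81, 1.20 and 2.19 with α-KG, and 0.62, 0.51, 0.20 and 0.69 in the combination. All 4 anti-PD1 tumors lay below all vehicle tumors, a separation that 3.61% of all genes tested showed, and below all α-KG tumors, which 5.41% of genes showed. Neither difference passed the test, at -0.46 against vehicle (SE 0.24, adjusted p = 0.36) and 0.67 for α-KG minus anti-PD1 (SE 0.24, adjusted p = 0.19). The combination differed from vehicle by -0.28 (SE 0.24, adjusted p = 0.37). Vehicle tumor 4, the highest vehicle value, also had a summed level of 5 skeletal muscle markers of 644 FPKM, against 49.7 to 66.7 in the other vehicle tumors and 2.49 to 3.97 in anti-PD1 tumors. Without that tumor the anti-PD1 difference was -0.19 (adjusted p = 0.82), and the part of muscle RNA in it was not tested. Between combination and α-KG the difference was -0.49 (SE 0.24, adjusted p = 0.12), which passed without vehicle tumor 4 (adjusted p = 0.049) and with tumors centered on their medians (-0.76, adjusted p = 0.033).

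Among clade B genes, Serpinb9, the granzyme B inhibitor, was detected at 0.5 FPKM or more in all 16 tumors. It was at 3.25, 2.82, 0.91 and 0.66 FPKM in vehicle, 1.79, 6.09, 6.98 and 3.37 with anti-PD1, 2.64, 4.01, 3.03 and 2.05 with α-KG, and 20.63, 6.51, 18.43 and 5.58 in the combination. The combination was wholly above vehicle and wholly above α-KG, and it overlapped anti-PD1. Against vehicle the difference was 2.16 (SE 0.43, adjusted p = 0.0013), and the mean rose 6.70-fold, from 1.91 ± 1.31 to 12.8 ± 7.85 FPKM.

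Serpinb9b, which inhibits granzyme M, varied most among combination tumors. Its 4 values there were 8.44, 1.14, 5.16 and 0.53 FPKM, against 0.32, 0.55, 0.14 and 0.17 in vehicle, 0.44, 1.71, 0.97 and 0.47 with anti-PD1 and 0.29, 0.42, 0.49 and 0.32 in α-KG. The lowest combination tumor fell just under the highest vehicle tumor, so the combination was higher in 15 of 16 tumor pairs. It was higher than vehicle by 1.53 (SE 0.42, adjusted p = 0.0087) and than α-KG by 1.43 (SE 0.42, adjusted p = 0.015). The second call was lost without combination tumor 3 and when only the groups compared were fitted, both with an adjusted p of 0.052.

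Serpinb6b, the granzyme A inhibitor, was at 1.41, 0.96, 0.43 and 0.28 FPKM in vehicle, 1.13, 2.43, 2.98 and 1.68 with anti-PD1, 1.14, 2.13, 1.14 and 1.33 with α-KG, and 11.68, 3.20, 11.09 and 2.18 in the combination. Its combination values did not overlap those of vehicle or α-KG. The difference was 1.97 against vehicle (SE 0.38, adjusted p = 0.0012) and 1.48 against α-KG (SE 0.38, adjusted p = 0.0076).

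Serpinb6a, the cathepsin G inhibitor, was the most abundant member in every tumor but combination tumor 3, where Serpina3g exceeded it, and had the smallest spread for its level. Its values ran from 42.27 to 62.13 FPKM in vehicle, 43.27 to 56.52 with anti-PD1, 37.66 to 46.19 with α-KG and 43.02 to 53.91 in the combination. The difference between combination and vehicle was -0.04 (SE 0.12, adjusted p = 0.83), and its sign turned to 0.18 (adjusted p = 0.20) when the tumors were rescaled to the same FPKM sum. Its paralog Serpinb6b made up 0.449% to 3.12% of the summed FPKM of both genes in vehicle tumors and 4.82% to 19.2% in the combination.

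Of the 7 members other than Serpina3g, 4 had all combination tumors above all vehicle tumors (Serpina3f, Serpina3i, Serpinb9 and Serpinb6b), and 28.2% of all genes tested did so. Serpina3f and Serpina3i were among the genes tested only through the combination, so their separation is not independent of it. All 5 calls against vehicle were kept in 9 other settings of the fit and after leaving out any 1 of the 16 tumors. For genes as a whole the balance of calls depended on scaling: 4479 were higher and 1348 lower as deposited, 2241 and 3994 after quantile normalization, 2197 and 4803 after centering on tumor medians, and 6294 and 250 at an equal FPKM sum. The median over all genes was 0.15, -0.11, -0.16 and 0.34 in these settings, and the members' differences are to be read against it.

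**Figure D2:**
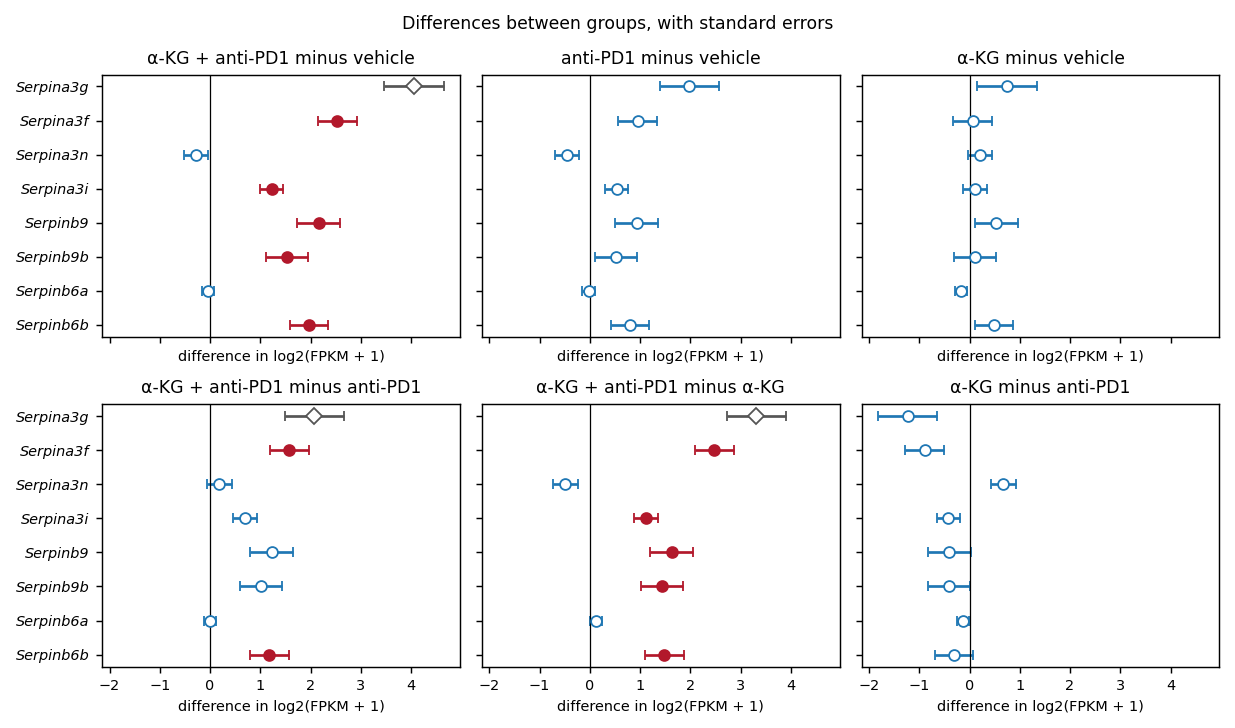
Difference in mean log2(FPKM + 1) between groups for each serpin in 6 comparisons; error bars are 1 SE from limma. Filled red circles passed an adjusted p of 0.05, open circles did not, and open diamonds mark Serpina3g where it was not tested; no filled circle appears in the 3 panels without the combination.

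Neither single treatment gave a call among the 8 genes. With anti-PD1 alone, 0 members were called by limma, 4 had an unadjusted p under 0.05 (Serpina3g, Serpina3f, Serpina3i and Serpinb9), and 0.747% of all genes were called in either direction. Serpina3g differed by 1.98 (SE 0.59, adjusted p = 0.11) and was higher in 15 of 16 tumor pairs. Without vehicle tumor 1 its difference was 2.28 with an adjusted p of 0.044, the only member call that leaving out a tumor gave in this comparison. The vehicle tumors were part of the choice of Serpina3g, so these values for it are a description and no evidence of a rise. Serpinb9 differed by 0.94 (SE 0.43, adjusted p = 0.29), Serpina3f by 0.96 (SE 0.39, adjusted p = 0.23) and Serpinb6b by 0.79 (SE 0.38, adjusted p = 0.31).

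With α-KG alone, 0 members were called by limma and 0 had an unadjusted p under 0.05, where 15.9% of all genes were called. Differences from vehicle ran from -0.17 for Serpinb6a to 0.74 for Serpina3g (SE 0.59, adjusted p = 0.43). Serpinb9 differed by 0.53 (SE 0.43, adjusted p = 0.44). Set against each other, α-KG and anti-PD1 tumors gave 0 calls among the members and 2 unadjusted p under 0.05, for Serpina3f and Serpina3n, with 3.16% of all genes called. Serpina3g was lower in α-KG than in anti-PD1 tumors by a difference of -1.24 (SE 0.59, adjusted p = 0.33).

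Against anti-PD1 alone, Serpina3f and Serpinb6b were higher in the combination and the other tested members did not pass. Of the 7 members other than Serpina3g, 2 were called higher in the combination than in anti-PD1 tumors, and 14.2% of all genes were. Serpina3f differed by 1.57 (SE 0.39, adjusted p = 0.021) and Serpinb6b by 1.18 (SE 0.38, adjusted p = 0.049). No member separated all combination from all anti-PD1 tumors, which 13.6% of genes did. Serpinb9 differed by 1.23 (SE 0.43, adjusted p = 0.061), Serpina3i by 0.69 (SE 0.23, adjusted p = 0.056) and Serpinb9b by 1.02 (SE 0.42, adjusted p = 0.10). Tests of Serpina3f, Serpina3i and Serpinb9b are not independent of the combination, through which alone they met the filter on low values. Serpina3g, not tested, differed by 2.08 (SE 0.59).

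The Serpinb6b call against anti-PD1 held in 2 of 9 other settings and in 4 of 16 fits with 1 tumor left out, with adjusted p up to 0.16, and the Serpina3f call held in 8 of 9 and in 12 of 16. Serpina3f was lost without anti-PD1 tumor 1 (adjusted p = 0.084), anti-PD1 tumor 4 (0.074), combination tumor 1 (0.053) or combination tumor 3 (0.072).

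Of the 7 members tested, 5 were called higher in the combination than in α-KG tumors, at a background of 31.8% of genes called higher. Those 5, Serpina3f, Serpina3i, Serpinb9, Serpinb9b and Serpinb6b, had all 4 combination tumors above the 4 α-KG tumors, as 29.7% of genes did. Among them Serpina3f, Serpina3i and Serpinb9b met the filter on low values only through the combination. Their calls and separation are therefore not independent of it. Serpinb9 was higher by 1.63 (SE 0.43, adjusted p = 0.0084). Serpinb6a differed by 0.13 (SE 0.12, adjusted p = 0.41), which became 0.35 with an adjusted p of 0.016 at an equal FPKM sum and -0.14 with tumors centered on their medians. The interaction, how much more anti-PD1 added on top of α-KG than on top of vehicle, gave 0 calls among the 7 and 1 unadjusted p under 0.05, with 11.1% of genes called. That was Serpina3f, at 1.51 (SE 0.55, adjusted p = 0.084), and it passed only without combination tumor 4 (1.87, adjusted p = 0.028) or at an equal FPKM sum (1.65, adjusted p = 0.049). These comparisons share tumors, so they are not independent of each other.

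The proteases that these serpins block were read from the same tumors. Of 10 granzyme and perforin genes, 9 were called higher in the combination than in vehicle, as were 34.9% of all genes tested. The list median was 2.63. Gzme, which is among the 9, met the filter on low values only with combination tumors counted, so its calls are not independent of them. Gzmb, the target of Serpinb9, was at 4.51, 3.19, 0.09 and 0.31 FPKM in vehicle and at 138.78, 35.20, 107.42 and 12.75 FPKM in the combination, a difference of 4.45 (SE 0.73, adjusted p = 0.00053). Gzma, the target of Serpinb6b, went from 0.245 ± 0.239 to 16.6 ± 16 FPKM (SD, n = 4), a difference of 3.11 (SE 0.65, adjusted p = 0.0018). Gzmm, the target of Serpinb9b, was the exception in the list, at 0.515 ± 0.478 in vehicle and 0.965 ± 0.358 FPKM in the combination (difference 0.41, SE 0.22, adjusted p = 0.14).

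The remaining granzymes passed the test in the combination. Gzmc differed by 3.06, Gzmf by 3.02, Gzmk by 2.24, Gzme by 2.03, Gzmd by 1.94 and Gzmg by 1.41, and Prf1, the pore-forming perforin, by 3.83. The limit given above for Gzme applies here and against anti-PD1. With α-KG alone 0 of the 10 were called and with anti-PD1 alone 0 of the 10. Of all genes, 15.9% and 0.747% were called in either direction in these comparisons. Against anti-PD1 tumors, 5 of the 10 were higher in the combination, among them Gzmb (2.81, limma adjusted p = 0.025), where 14.2% of all genes were.

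Cathepsins moved less than granzymes. In the combination 10 of 13 tested cathepsins were higher than in vehicle, where 34.9% of all genes were, with a list median of 0.66. The largest differences were those of Ctss (3.25, SE 0.53), Ctsw (2.58, SE 0.55) and Ctsh (1.90, SE 0.33). Cathepsins S and H are lysosomal proteases of antigen-presenting cells, and cathepsin W is a protease of cytotoxic lymphocytes. With α-KG alone 5 of the 13 were called higher and 1 lower, where 8.40% of all genes were called higher. With anti-PD1 alone 1 was called higher, where 0.467% of all genes were. The 4 neutrophil serine proteases all fell under the filter on low values. Among them Ctsg, the target of Serpinb6a and Serpina3n, was listed at 0 in all anti-PD1 and all α-KG tumors and reached at most 0.08 FPKM elsewhere.

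The ratio of inhibitor to protease was compared tumor by tumor as log2 of (serpin + 1) over (granzyme + 1). For Serpinb9 over Gzmb it averaged 0.16 in vehicle (range -0.37 to 0.81), -0.54 with anti-PD1, -0.05 with α-KG and -2.13 in the combination (range -2.69 to -1.06). The difference between combination and vehicle was -2.29, with no overlap of the 2 groups (exact two-sided permutation p = 0.0286, the smallest that 4 against 4 tumors allow, and 0.129 adjusted over 9 comparisons). For Serpinb6b over Gzma it averaged 0.48 in vehicle and -0.65 in the combination, a difference of -1.13 without overlap (exact p = 0.0286, adjusted 0.129), or -2.14 with a pseudocount of 0.1. For Serpinb9b over Gzmm it went the other way, from -0.19 to 0.93, a difference of 1.12 with overlap (exact p = 0.143, adjusted 0.214).

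**Figure D3:**
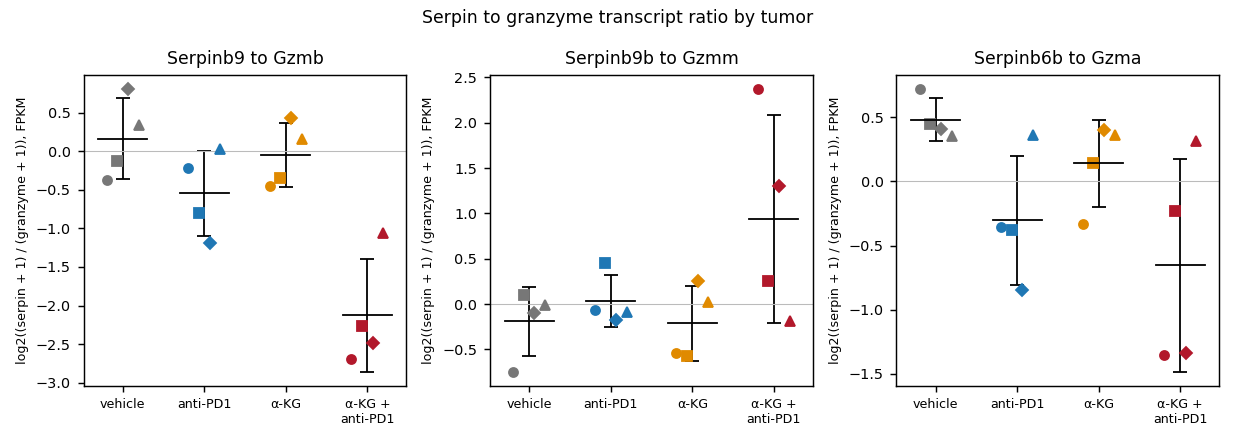
Ratio of serpin to granzyme transcript in each tumor, as log2 of (serpin FPKM + 1) over (granzyme FPKM + 1), for 3 inhibitor and protease pairs; symbols are tumors, the line is the group mean and the bar 1 SD (n = 4). Serpinb9 over Gzmb lies below -1 in all 4 combination tumors and above -0.5 in all vehicle tumors.

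None of the 9 ratio comparisons passed after adjustment. With a pseudocount of 0.1, 4 comparisons reached an adjusted p of 0.0643, including all 3 treatments for Serpinb6b over Gzma. Both genes of each pair differed from tumor to tumor in vehicle, where several values are close to 0 and the pseudocount weighs most.

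Beyond group means, tumors of one group differed from each other in step across most members. Combination tumors 1 and 3 were the highest and tumors 2 and 4 the lowest for each of the 6 rising genes. On deviations from group means over the 16 tumors, Pearson's r was 0.91 between Serpina3g and Serpina3f, 0.94 between Serpina3g and Serpinb9, and 0.93 between Serpinb9 and Serpinb6b. Serpina3n and Serpinb6a stood apart, with r of -0.41 and 0.09 against Serpina3g. These are descriptions of genes read from the same libraries.

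In all, 32 relations were tested on such deviations, of the 8 members with Ifng, with Gzmb and with the mean levels of 8 leukocyte and of 8 neutrophil markers, by 100000 permutations within groups. After adjustment over all of them, 17 passed by Pearson and 17 by Spearman. Serpina3g was chosen from the combination tumors, which are included, so its relations are a description although they are counted here. Serpina3f, Serpina3i and Serpinb9b met the filter on low values only through those tumors, so their relations are not independent of them. Ifng, the interferon gamma gene, was related to the 6 rising members and to neither of the others.

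For Serpina3g against Ifng, r was 0.91 and rho 0.93, given as a description. For Serpina3f r was 0.95 and rho 0.97, for Serpinb6b 0.95 and 0.94, for Serpinb9 0.88 and 0.94, and for Serpina3i 0.84 and 0.85, with adjusted permutation p between 0.00048 and 0.0020. For Serpinb9b r was 0.85 and rho 0.89 (adjusted permutation p = 0.044). Without the 2 tumors whose Ifng lay farthest from the median, combination tumors 1 and 3, r was 0.92 for Serpina3g and 0.89 for Serpina3f. It was 0.88 for Serpinb6b, 0.81 for Serpina3i and 0.80 for Serpinb9. Serpinb9b fell to 0.69 (permutation p = 0.068). With 2 fewer tumors, this does not show whether its relation depends on them. Serpina3n had r of -0.33 and Serpinb6a r of 0.20 with Ifng, and neither passed.

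**Figure D4:**
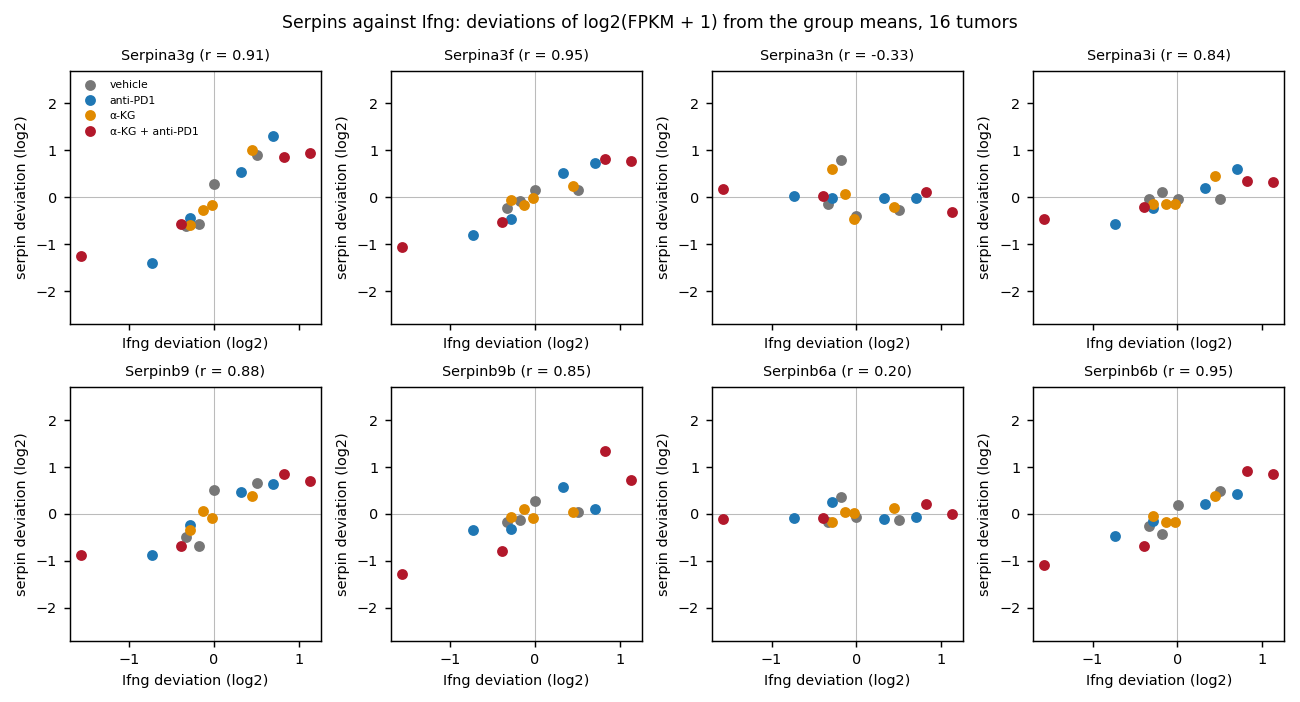
Deviation of each serpin from its group mean against that of Ifng, both in log2(FPKM + 1), for 16 tumors colored by group, with Pearson's r in each panel title. Over the 16 tumors, points rise together for 6 serpins and show r of 0.20 for Serpinb6a. The rise does not hold in every group. In vehicle, Serpina3i was above 0 only in tumor 4, where Ifng was 0.11 FPKM against 0.79 FPKM in tumor 1.

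Gzmb was likewise related to the 6 rising members, with r from 0.77 for Serpina3i to 0.95 for Serpinb9 and adjusted permutation p up to 0.0084. The leukocyte marker mean was related to 5 of them, with r of 0.91 for Serpinb9, 0.90 for Serpinb6b, 0.81 for Serpina3g, 0.79 for Serpina3f and 0.76 for Serpinb9b. For Serpina3i r was 0.53 (adjusted permutation p = 0.068). None of the 8 members passed with the neutrophil marker mean, where r ran from -0.33 for Serpina3g to 0.42 for Serpina3n.

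In whole-tumor RNA, fewer cells of a type and less RNA per cell cannot be told apart, so marker levels are given beside the serpins. The 8 leukocyte markers summed to 46.5 to 190 FPKM in vehicle, 195 to 388 with anti-PD1, 554 to 607 with α-KG and 298 to 1102 in the combination. Every α-KG tumor thus exceeded every anti-PD1 tumor in leukocyte markers, while Serpina3g was at 0.85 to 4.61 FPKM in α-KG and 1.48 to 15.27 in anti-PD1. The 8 neutrophil markers summed to 1091 to 2894 FPKM in α-KG, 25.0 to 42.2 in vehicle, 26.3 to 107 in anti-PD1 and 34.7 to 115 in the combination. The 2 CD8 T-cell markers summed to 0.61 to 3.87, 4.64 to 14.7, 1.35 to 15.3 and 8.06 to 78.1 FPKM in vehicle, anti-PD1, α-KG and combination tumors.

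Other cell types moved too. The 9 macrophage markers summed to 98.9 to 495 FPKM in vehicle and 687 to 1658 in the combination, and the 5 NK-cell markers to 0.04 to 0.64 and 2.22 to 24.4 FPKM. The 7 melanocyte markers, which mark the tumor cells, summed to 7845 to 10572 FPKM over all 16 tumors, so the samples hold the melanoma their label names. The 6 red cell markers summed to 10891 to 11752 FPKM in the combination and 23318 to 145323 in the other groups. FPKM is a share of each library. The equal FPKM sum used above includes the red cell genes, so that setting does not remove their share. The part of each cell type in the serpin differences was not tested.

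**Figure D5:**
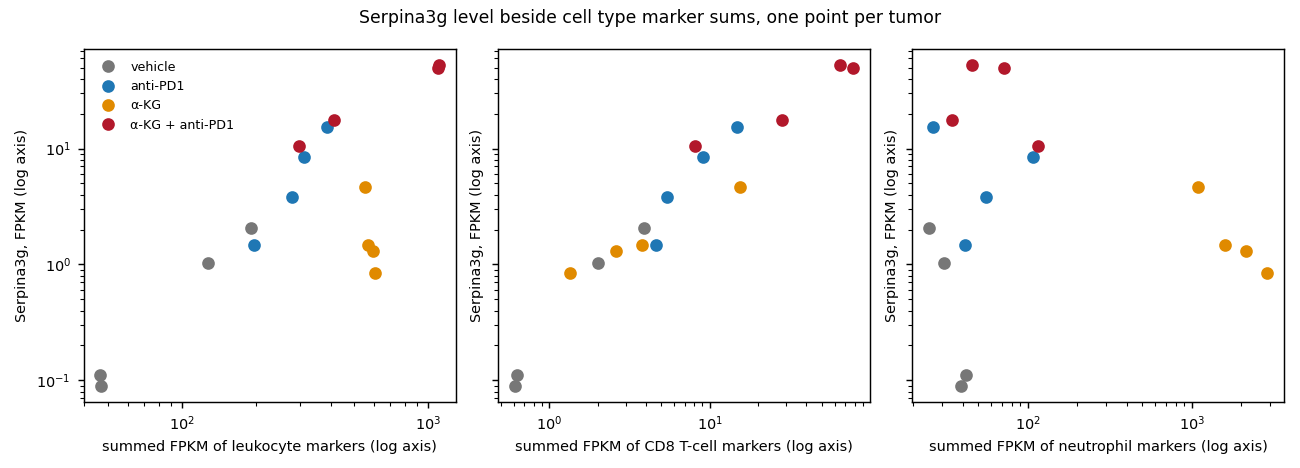
Serpina3g in FPKM against the summed FPKM of leukocyte, CD8 T-cell and neutrophil markers, on log axes, 1 point per tumor colored by group. The 4 α-KG tumors lie to the right of the anti-PD1 tumors for leukocyte and neutrophil markers, and among the other tumors for CD8 T-cell markers. Their Serpina3g was 0.85 to 4.61 FPKM, against 1.48 to 15.27 FPKM with anti-PD1. The highest, α-KG tumor 2, exceeds anti-PD1 tumors 1 and 4 and has the highest CD8 T-cell marker sum of its group, 15.33 FPKM.

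Genes of the whole table were searched for the pattern most like each member, by Pearson's r of deviations from group means over 16 tumors and 11578 genes with a mean of at least 1 FPKM. For Serpina3g these were Cxcl9 (0.99), Prf1 (0.98) and Psmb10 (0.98), and for Serpina3f Socs1 (0.99), Gm12185 (0.98) and Samhd1 (0.98). For Serpina3i they were Pdcd1 (0.91), Gm12185 (0.91) and Ogfr (0.90). Cxcl9 encodes a T-cell-attracting chemokine, Psmb10 an immunoproteasome subunit and Pdcd1 PD-1 itself. The clade B members gave Cxcl9 (0.97) and Fgl2 (0.96) for Serpinb9, Jund (0.98), Arhgef3 (0.95) and Cd37 (0.95) for Serpinb9b, and Ikzf1 (0.99), Shisa5 (0.98) and Arhgef6 (0.98) for Serpinb6b.

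Serpina3n and Serpinb6a had other companions. Serpinb6a was closest to Aurkaip1 (0.88), Cox6a2 (0.86) and Mrpl41 (0.86). Serpina3n was closest to Srl (0.81), Ankrd2 (0.80) and Tnnt1 (0.75), which are muscle genes, beside the muscle marker sum of vehicle tumor 4 given above.

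Genes from other fixed lists place these values. Of the genes known to be induced by interferon gamma, 23 of 23 tested were called higher in the combination than in vehicle, where 34.9% of all genes were. Their median was 3.02, led by Gbp4 (4.14), Iigp1 (4.04) and Gbp6 (3.98), which encode interferon-inducible GTPases. With α-KG alone 1 of 23 was called, where 15.9% of all genes were called in either direction. With anti-PD1 alone 0 were called, where 0.747% of all genes were. The acute-phase list behaved differently, with 9 of 11 tested genes higher with α-KG alone (median 2.93), where 8.40% of all genes were. In the combination 6 of 11 were higher (median 0.76). Serpina3n, itself an acute-phase gene, differed from vehicle by 0.21 with α-KG (SE 0.24, adjusted p = 0.61), while Hp, which encodes haptoglobin, stood at 41.1 FPKM in α-KG against 1.45 in vehicle.

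Of the 37 other serpin genes listed, 9 passed the filter on low values. Of all genes tested, 34.9% were called higher in the combination than in vehicle. In the combination 2 were higher than vehicle, Serpine2 by 1.52 (SE 0.22, adjusted p = 0.00042) and Serpinb10 by 0.66 (SE 0.20, adjusted p = 0.013), and 1 was lower, Serpinf1 by -0.71 (SE 0.21, adjusted p = 0.013). Serpinb10 met the filter on low values only with combination tumors counted, so its call is not independent of them. Serpine2 encodes protease nexin-1, an inhibitor of thrombin and urokinase, and Serpinf1 encodes pigment epithelium-derived factor. Serping1, the C1 inhibitor, differed by 0.77 (SE 0.43, adjusted p = 0.15).

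Serpinb2, which encodes plasminogen activator inhibitor 2, is given because it was high in another group. It was at 12.53, 5.05, 11.37 and 20.54 FPKM in α-KG tumors and at or below 0.34 FPKM in all vehicle and anti-PD1 tumors. The difference from vehicle was 3.47 (SE 0.29). In the combination it was at 0.21, 0.20, 0.15 and 1.32 FPKM. The difference between combination and α-KG was -3.11 (SE 0.29), the opposite direction from Serpina3g and the 5 called members in that comparison. Serpinb2 was picked for its α-KG values and met the filter on low values only through them. Both differences are therefore a description, without a test.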

How the data were processed

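RNA from 16 B16F10 tumors, 4 in each of 4 groups, was sequenced as stranded (dUTP) oligo(dT) libraries on a DNBSEQ platform. FPKM values per gene were calculated and deposited by the authors, with 2 decimals. The submitters' processing notes name HISAT, Bowtie2 and mm10 without versions, and the counting program and annotation are not given in the sources used here. FPKM hides depth, and paralogs may share fragments. Groups follow the submitters' labels.

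From these values, log2(FPKM + 1) was fitted in R 4.3.3 with limma 3.58.1, with 1 mean per group, all 16 tumors and an intensity trend, over 12850 of 18929 genes with at least 0.5 FPKM in 4 tumors. All 8 serpins passed this filter, some only through the tumors where they are high. Calls used a Benjamini-Hochberg adjusted p under 0.05. The fit was tested on simulated data. Permutation tests, relations and figures used Python 3.11.15, numpy 2.4.6, scipy 1.17.1, pandas 2.3.3 and matplotlib 3.10.9, and promoter alignments Biopython 1.88. Promoter letters and gene positions came from RefSeq (GRCm38.p6), in which all 8 members matched by symbol.

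The members and gene lists were chosen with earlier results of these data known. The text names all 8 members, all granzymes, the 3 genes of each other list with the largest difference between combination and vehicle (5 for other serpins), and the 3 genes most like each member, of which 1 is not reported here. Serpinb2, Hp and Ctsg were described after their values were seen where they fall outside that rule. The alternatives were another pseudocount, other filters, other scalings, other fits, a replicate block and leaving out each tumor.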

Additional observations from a re-analysis of the deposited data

Results flagged for a closer look

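Of 32 sets of 4 tumors (8 serpins in 4 groups), 3 held a tumor farther from the others than Dixon's test allows at 95%, and chance gives about 1 in 20. Serpina3i was at 0.12 FPKM in vehicle tumor 4 and at 0.51 FPKM in α-KG tumor 2, while the other 3 tumors of each group were listed at 0. With 3 values at 0 any other value is flagged, so the chance rate does not apply to Serpina3i. Serpinb6a was at 56.52 FPKM in anti-PD1 tumor 4, against 43.27 to 44.85 FPKM in the other anti-PD1 tumors.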

How the results depend on the processing

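The calls against vehicle kept their number in all settings. Against anti-PD1, the 2 members called became 1 with a pseudocount of 0.1, without a filter, with quantile normalization, centering on tumor medians, no trend or a replicate block, 4 at an equal FPKM sum, and 0 when only the groups compared were fitted. The interaction went from 0 to 1 at an equal FPKM sum. With 1 tumor left out, the counts were 0 to 5 against anti-PD1, 4 to 6 against α-KG, 0 to 1 for anti-PD1 against vehicle and 0 to 1 for the interaction. The causes were not tested.

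Signs turned only for small differences. At an equal FPKM sum Serpinb6a was at 0.18 against vehicle and 0.18 against anti-PD1, and Serpina3n at 0.039 for the interaction. With quantile normalization Serpina3f was at -0.058 and Serpinb9b at -0.049 for α-KG against vehicle, and Serpina3n at 0.031 for the interaction. With centering Serpina3n was at -0.051 against anti-PD1, and Serpinb6a at -0.14 against α-KG and -0.038 for the interaction. A pseudocount of 0.1 gave Serpina3n 0.0075 for the interaction and Serpinb9b over Gzmm 0.036 for α-KG against vehicle.

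With 1 tumor left out, Serpinb6a ran from -0.10 to 0.087 (combination against vehicle), -0.11 to 0.096 (anti-PD1 against vehicle) and -0.078 to 0.079 (combination against anti-PD1). For α-KG against vehicle, Serpina3f ran from -0.025 to 0.12, Serpina3i from -0.041 to 0.16, Serpinb9 over Gzmb from -0.39 to 0.0032 and Serpinb9b over Gzmm from -0.21 to 0.10. Serpina3n ran from -0.29 to 0.17 for the interaction.

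Replicate numbers did not pair the tumors: same-numbered tumors of different groups had deviations correlated at -0.642 to 0.411, with 9 of 24 pairs over 0.1, and 4 of 16 tumors were closest to their own number. The replicate block gave 5 calls against vehicle, 5 against α-KG and 1 against anti-PD1. A filter of 1 FPKM in 4 tumors removed Serpina3n. Depth is unknown, so the precision of values under 1 FPKM, most of all Serpina3i and Serpinb9b, cannot be given.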
